A study of Mus musculus with 6 samples.

Results

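Mitotic entry and exit regulators are the kinases, phosphatase inhibitors, checkpoint proteins and ubiquitin ligase subunits that take a cell into mitosis and out of it again. A list of 46 such genes was taken. Each was read from the probe annotated with that gene alone, and from the probe with the highest mean over the 6 arrays where there were several. By this rule 45 of the 46 genes were measured, among 19733 genes in all, and only Anapc5 had more than 1 probe. Ccnb1, which encodes cyclin B1, had no probe of its own among those used and was not analysed here.

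The arrays came from mouse bone marrow pre-B cells with floxed alleles of Ppp2r1a (Ppp2r1afl/fl), which encodes a scaffold of the phosphatase PP2A. All cells had been transduced with BCR-ABL1, the fusion kinase of some acute lymphoblastic leukaemias. In the Cre group (3 arrays) they also received Cre recombinase, which deletes the floxed gene, and in the empty vector (EV) group (3 arrays) a vector without Cre. The labels call the EV cells wild type, but these cells carry the floxed alleles as well. No array had Cre in cells without floxed alleles, so effects of Cre itself and of the deletion cannot be told apart. The labels do not say whether the repeats were separate cultures or mice, and the p-values therefore cover the spread between arrays alone, which may be technical. The values are log2 expression levels (RMA) as deposited, and each change is the Cre mean minus the EV mean. Its standard error (SE) comes from a limma fit over all genes. A gene was called changed at a limma adjusted p below 0.05, after Benjamini-Hochberg adjustment over all 19733 genes.

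Mitosis starts when Cdk1, bound to cyclin A or cyclin B, is released from its inhibitory phosphates by CDC25 phosphatases, which outrun the kinases WEE1 and MYT1. PP2A with a B55 subunit removes the phosphates that Cdk1 adds, and it is held off by the Greatwall kinase (Mastl), which turns Ensa and Arpp19 into B55 inhibitors, as worked out mainly in frog egg extracts and human cells. Exit follows when the spindle checkpoint releases Cdc20, and the anaphase-promoting complex (APC/C) has securin and the cyclins destroyed. The deleted scaffold subunit is common to the B55 and B56 forms of PP2A, and cycling pre-B cells express this machinery.

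Ppp2r1a read 7.12, 6.98 and 6.92 in Cre and 9.06, 9.05 and 9.06 in EV, a change of -2.05 (SE 0.07; limma adjusted p = 1.2e-05). The signal of the deleted gene was thus lower in every Cre array than in every EV array. It still lay above the array medians, which ran from 5.217 to 5.27. The source of the remaining signal was not tested. Of 13 measured pre-B markers, Cd79a averaged 11.07 in Cre and 10.92 in EV and Igll1 12.04 in both groups, while Rag1 (change -2.09), Rag2 (-1.84) and Dntt (-0.48) fell. The groups did not overlap in 6 of the 13 with Cre lower, among them Ebf1 (-0.24), Lef1 (-0.28) and Il7r (-0.12), which did not pass. They did not overlap in 2 with Cre higher, Cd79a (0.14) and Pax5 (0.08). Of all genes 12.2% were apart with Cre lower and 10.3% with Cre higher. At or above the median level these shares were 18.4% and 14.5%. The median change of the list was -0.12. The mean level of the pre-B list lay between 9.94 and 10.09 in the Cre arrays and between 10.36 and 10.42 in the EV arrays, and the 2 Rag genes have by far the largest changes in it. None of 36 measured markers of T, myeloid, NK, erythroid, stromal, endothelial and plasma cells passed the test (smallest limma adjusted p = 0.0837, with 3 higher and 2 lower at an unadjusted p below 0.05). The mean level of the T cell list was 4.17 to 4.33 in Cre and 4.21 to 4.35 in EV, and that of the myeloid list 3.72 to 3.79 in Cre and 3.62 to 3.71 in EV, every Cre array being above every EV array in the myeloid list. The NK list gave 3.37 to 3.58 in Cre and 3.23 to 3.46 in EV, the stromal and endothelial list 4.91 to 4.99 in Cre and 4.90 to 4.99 in EV. The erythroid and megakaryocyte list gave 4.06 to 4.41 in Cre and 4.08 to 4.44 in EV, and the plasma cell list 5.14 to 5.20 in Cre and 5.10 to 5.31 in EV. The part of these marker differences in the values of the mitotic regulators was not tested.

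Most mitotic regulators were slightly higher in the Cre cells, and only 1 passed the test. Cdc20, the activator of the APC/C at the start of anaphase, rose 1.27-fold, 0 fell and 44 did not pass, against 3.49% of all genes called in either direction (1.35% rose and 2.14% fell). A positive change was measured for 36 of the 45, against 49.1% of all genes. The median change was 0.08, and over all genes it was -0.003. The 3 Cre arrays lay above all 3 EV arrays for 19 of the 45 genes (42.2%), against 10.3% of all genes, and below them for 1, Bora, against 12.2% of all genes. The 45 probes were bright: 44 lay above the median level of all genes, and among genes at or above that median those shares were 14.5% and 18.4%, and 47.7% had a positive change. At an unadjusted p below 0.05, 10 of the genes were higher and 0 lower, against 7.1% and 9.02% of all genes. The changes were small throughout, from -0.23 for Bod1 to 0.34 for Cdc20, and the unadjusted 95% intervals of all 45 lay between 0.67-fold and 1.41-fold. The median spread between arrays of a group was 0.06 (SD) for these genes and 0.11 for all genes. In these bulk samples, more cells in mitosis and more RNA per cell cannot be told apart.

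**Figure D1:**
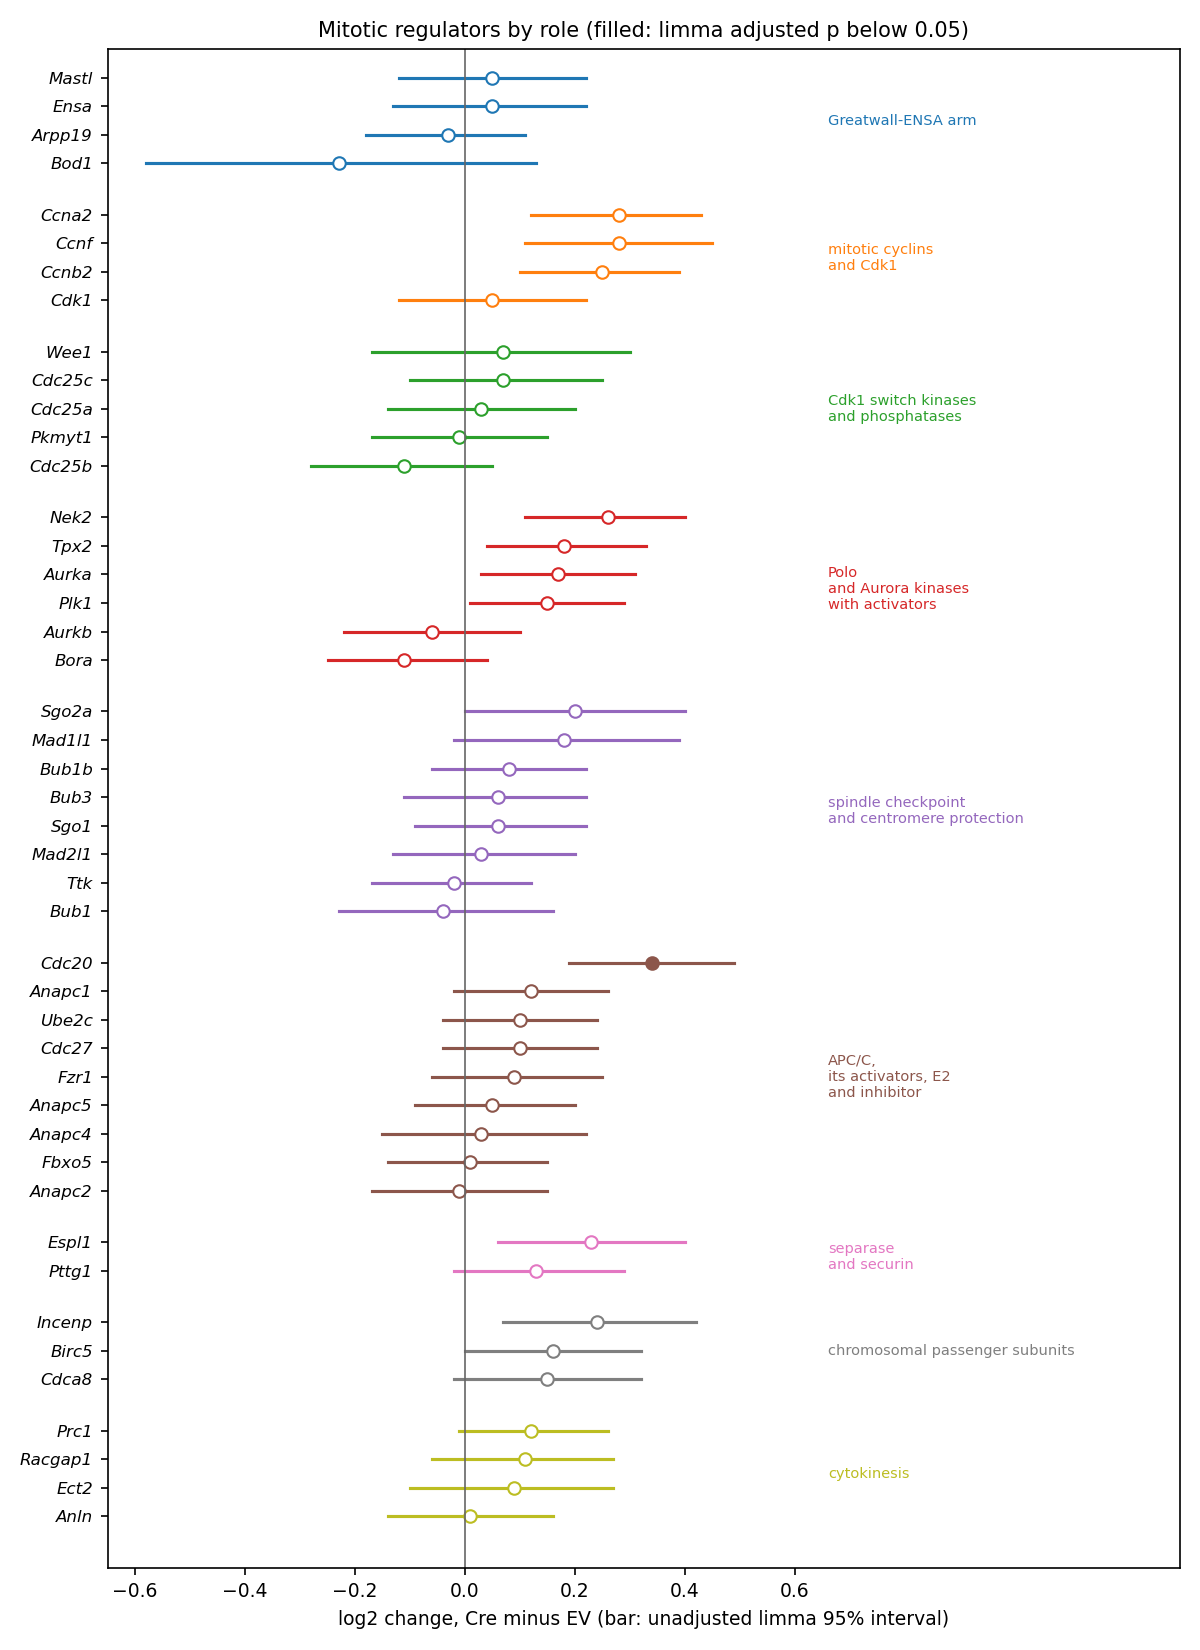
Log2 change (Cre minus EV, x axis) of the 45 measured mitotic regulators, grouped by role, with unadjusted limma 95% intervals as bars. The filled point, Cdc20 at 0.34, is the gene that passed the test, and 36 of the points lie to the right of 0.

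The shift was seen array by array. Taking each gene's deviation from its own mean over the 6 arrays, the median over the 45 genes was 0.071, 0.020 and 0.043 in Cre replicates 1 to 3 and -0.069, -0.019 and -0.056 in EV replicates 1 to 3. Of the 45 genes, 38, 30 and 31 lay above their own mean in Cre replicates 1 to 3, and 5, 20 and 14 did so in EV replicates 1 to 3. EV replicate 1 was the lowest array and EV replicate 2 the nearest to Cre. Over all genes the same medians lay between -0.009 and 0.015, with EV replicate 3 the highest. These deviations are a description of a list and were given no test.

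How many of the genes passed depended on the setting. With limma's trend and robust settings, switched on together, 9 of 45 rose (20%), against 3.24% of all genes: Cdc20, Ccna2, Ccnb2, Ccnf, Nek2, Tpx2, Aurka, Incenp and Birc5. With the dimmer 50% of genes left out, 8 of 44 rose, against 5.44% of the genes kept, and Espl1 was among them. Without the dimmest 25%, 4 of 45 rose (2.6% of the genes kept), and after a further quantile normalization 2 did (1.58%). Median centring (1.44%), mid-level centring (1.48%), array weights (1.39%) and a test of all probes (1.25%) each called Cdc20 alone, as did the mean of a gene's probes (1.35%). With the replicate block 0 rose (0.796%). With any single array left out 0 of 45 rose, against 0.745%, 0.699% and 0.796% of all genes without Cre replicate 1, 2 or 3 and 0.78%, 0.745% and 0.856% without EV replicate 1, 2 or 3. No setting called any of the 45 genes lower.

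**Figure D2:**
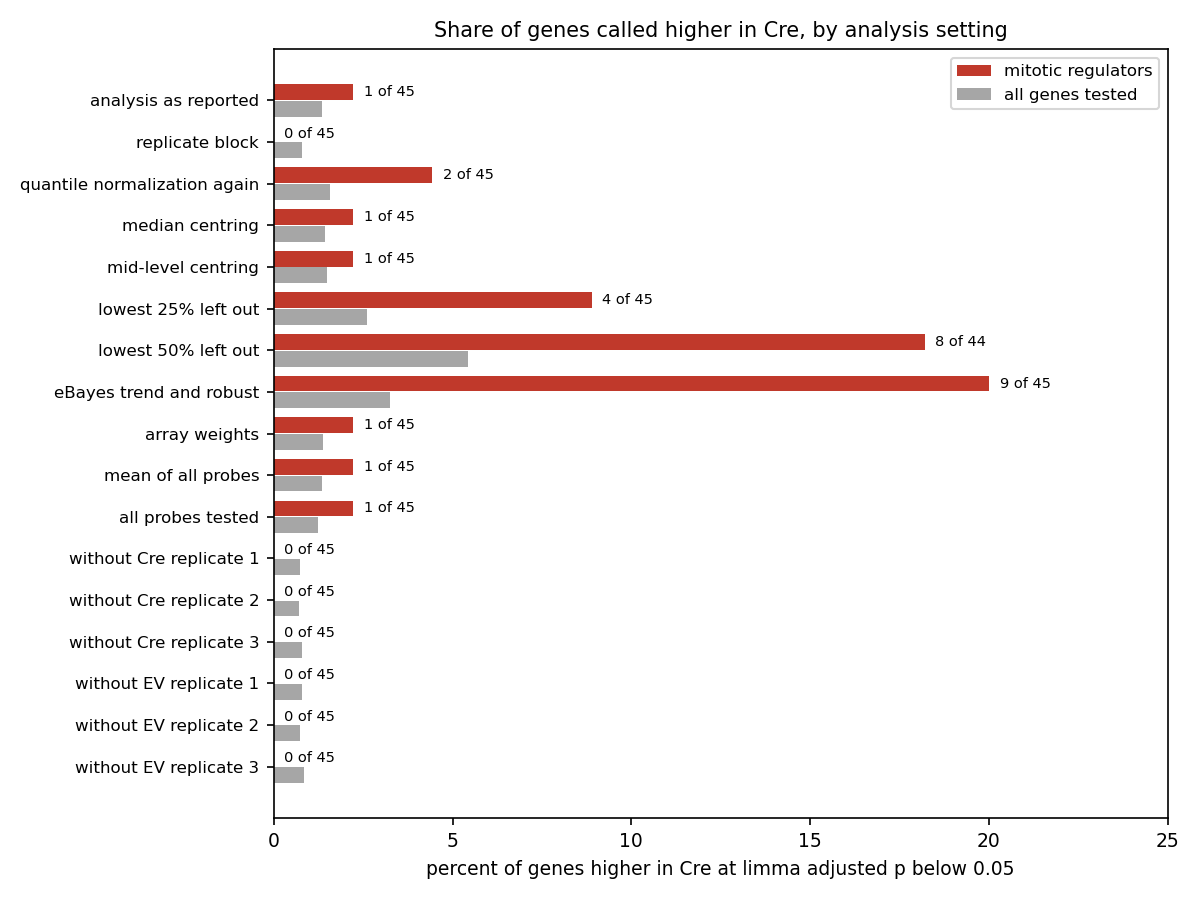
Percent of genes called higher in Cre (x axis) under the reported analysis and 16 alternatives (y axis), for the mitotic regulators (red, with counts) and for all genes tested (grey). The red bars run from 0 of 45 without any 1 array to 9 of 45 with limma's trend and robust settings.

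The Greatwall arm, which acts on PP2A itself, showed no change that passed the test. Mastl, the Greatwall kinase, read 7.17, 7.25 and 7.06 in Cre and 7.05, 7.12 and 7.16 in EV, with a change of 0.05 (SE 0.07; 95% interval -0.12 to 0.22). Its substrate Ensa read 7.70, 7.55 and 7.5 in Cre and 7.51, 7.60 and 7.49 in EV, a change of 0.05 (95% interval -0.13 to 0.22). In both genes the groups overlapped, with Cre replicate 2 the highest array for Mastl and Cre replicate 1 for Ensa. Arpp19, the paralogue of Ensa with the same role, read 8.49, 8.42 and 8.47 in Cre and 8.44, 8.53 and 8.5 in EV, a change of -0.03 (95% interval -0.18 to 0.11). Changes beyond about 1.17-fold in either direction thus lay outside the intervals of these 3 genes. Bod1, an inhibitor of PP2A with B56 subunits at kinetochores in human cells, read 5.0, 5.23 and 4.59 in Cre and 5.08, 5.14 and 5.27 in EV. It had the widest spread of the 45 genes, with Cre replicate 3 far below the others, and a change of -0.23 (SE 0.15; limma adjusted p = 0.544). Bod1 is also the gene of the list below the median level of all genes.

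The 3 cyclins measured from the list were higher in every Cre array without passing the test, and the groups overlapped for Cdk1. Every Cre array lay above every EV array in 10.3% of all genes and in 14.5% of those at or above the median level. Ccna2, cyclin A2, which drives Cdk2 and Cdk1 in S and G2 phase, read 10.85, 10.84 and 10.83 in Cre and 10.62, 10.47 and 10.60 in EV. Its change was 0.28 (SE 0.07; limma adjusted p = 0.0763). Ccnb2, cyclin B2, a direct activator of Cdk1, read 10.42, 10.47 and 10.47 in Cre and 10.24, 10.16 and 10.22 in EV, a change of 0.25 (SE 0.06; limma adjusted p = 0.0837). The groups did not overlap in either gene, and the gap between them exceeded the spread within a group. Ccnf, cyclin F, the substrate receptor of an SCF ubiquitin ligase, read 7.46, 7.51 and 7.60 in Cre and 7.17, 7.24 and 7.32 in EV, a change of 0.28 (SE 0.07; limma adjusted p = 0.0935). Each of these 3 cyclins missed the threshold. Cdk1 read 9.90, 9.96 and 9.98 in Cre and 9.78, 9.95 and 9.96 in EV, with a change of 0.05 (SE 0.07; 95% interval -0.12 to 0.22). Its groups overlapped, and EV replicate 1 alone lay apart. Whether the cyclins differ from Cdk1 in their change was not tested.

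For all 5 enzymes that set the phosphates of Cdk1 the groups overlapped, as they did for 15292 of all 19733 genes. Cdc25b, the phosphatase linked to the onset of mitosis at centrosomes, read 7.83, 7.74 and 7.90 in Cre and 7.87, 7.99 and 7.96 in EV, a change of -0.11 (SE 0.07; limma adjusted p = 0.513). Cdc25c, of the same family, read 7.78, 7.71 and 7.75 in Cre and 7.65, 7.80 and 7.58 in EV, a change of 0.07 (SE 0.08). Pkmyt1, the membrane-bound inhibitory kinase MYT1, read 7.69, 7.62 and 7.57 in Cre and 7.66, 7.56 and 7.69 in EV, a change of -0.01. Cdc25a, the phosphatase that also acts at the start of S phase, changed by 0.03, and Wee1, the nuclear inhibitory kinase, by 0.07 with an interval of -0.17 to 0.30. None of the 5 had an unadjusted p below 0.05.

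Among the Polo and Aurora kinases and their activators, none passed, and 4 of 6 were higher in every Cre array, against 10.3% of all genes and 14.5% of those at or above the median level. Nek2, a kinase that separates the centrosomes, read 7.67, 7.70 and 7.70 in Cre and 7.39, 7.47 and 7.45 in EV, a change of 0.26 (SE 0.06; limma adjusted p = 0.0728). Tpx2, the spindle protein that activates Aurora A, read 8.20, 8.20 and 8.23 in Cre and 8.0, 8.07 and 8.01 in EV, a change of 0.18 (SE 0.06; limma adjusted p = 0.175). Aurka, Aurora A itself, had the tightest arrays, at 8.32, 8.31 and 8.30 in Cre and 8.15, 8.15 and 8.12 in EV, with a change of 0.17 (SE 0.06; limma adjusted p = 0.197). In these 3 genes the groups were apart in every array, although none passed. Plk1, the Polo kinase that activates CDC25 and the APC/C, averaged 9.38 ± 0.04 in Cre and 9.23 ± 0.03 in EV (SD, n = 3 arrays each). Bora, the cofactor through which Aurora A activates Plk1, lay the other way, at 8.43, 8.46 and 8.5 in Cre and 8.58, 8.53 and 8.62 in EV, a change of -0.11 (SE 0.06; limma adjusted p = 0.463). Aurkb, the kinase of the chromosomal passenger complex, read 9.58, 9.52 and 9.65 in Cre and 9.58, 9.70 and 9.65 in EV, a change of -0.06 with overlapping groups.

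Spindle checkpoint genes lay closer to 0. Of 8, none passed, 6 had a positive change, and the median was 0.06. Over all genes 49.1% had a positive change, and 47.7% of those at or above the median level. Every Cre array lay above every EV array in 2 of the 8, against 10.3% of all genes and 14.5% of those at or above that level. Sgo2a, a shugoshin that brings PP2A with B56 to centromeric cohesin, read 8.70, 8.80 and 8.51 in Cre and 8.43, 8.49 and 8.49 in EV, a change of 0.20 (SE 0.09; limma adjusted p = 0.311). Its Cre arrays were widely spread, and the lowest of them nearly met the EV arrays. Mad1l1, which anchors Mad2 at kinetochores, read 7.01, 6.83 and 7.05 in Cre and 6.86, 6.83 and 6.65 in EV, a change of 0.18 (SE 0.09; limma adjusted p = 0.371). The checkpoint kinase Ttk (MPS1) read 8.30, 8.28 and 8.21 in Cre and 8.31, 8.29 and 8.25 in EV, a change of -0.02. Mad2l1, the Cdc20 inhibitor Mad2, changed by 0.03 (95% interval -0.13 to 0.20), Bub3 by 0.06, and the kinase Bub1 by -0.04. Bub1b, the checkpoint protein BubR1 that also binds B56, changed by 0.08, with 9.26, 9.31 and 9.33 in Cre and 9.22, 9.19 and 9.24 in EV. Sgo1, the other shugoshin, changed by 0.06. In Bub1b every Cre array was above every EV array. The 95% intervals of Mad2l1, Bub1b and Bub3, which together hold Cdc20 in check, reached up to 0.20, 0.22 and 0.22.

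Cdc20 was the gene that rose. It read 9.36, 9.35 and 9.40 in Cre and 8.95, 9.05 and 9.08 in EV, averaging 9.37 ± 0.03 in Cre and 9.03 ± 0.07 in EV (SD, n = 3 arrays each). The change was 0.34 (SE 0.07; limma adjusted p = 0.0331), and every Cre array was above every EV array. With 1 array left out the change stayed between 0.30 and 0.37, but none of these 6 fits called it (limma adjusted p = 0.0692 to 0.112). The other APC/C genes moved less. Fzr1, the activator Cdh1 that takes over from Cdc20 late in mitosis, averaged 7.98 ± 0.07 in Cre and 7.89 ± 0.04 in EV (SD, n = 3 arrays each). Fbxo5, the APC/C inhibitor Emi1, read 10.31, 10.30 and 10.25 in Cre and 10.22, 10.30 and 10.32 in EV, a change of 0.01 (95% interval -0.14 to 0.15). Anapc1, the largest scaffold subunit, read 8.70, 8.64 and 8.72 in Cre and 8.56, 8.59 and 8.55 in EV, a change of 0.12 (SE 0.06; limma adjusted p = 0.379). Ube2c, the ubiquitin-conjugating enzyme that starts chains for the APC/C, and Cdc27, a subunit that docks the activators, each changed by 0.10 with no overlap between the groups. With Cdc20 included, every Cre array lay above every EV array in 4 of the 9 genes of this role. That share was 10.3% of all genes and 14.5% of those at or above the median level. Anapc2, the cullin subunit, Anapc4 and Anapc5, both scaffold subunits, changed by -0.01, 0.03 and 0.05 with overlapping groups.

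None of the separase, securin and chromosomal passenger genes passed. Espl1, separase, the protease that opens cohesin, read 7.37, 7.39 and 7.47 in Cre and 7.07, 7.25 and 7.23 in EV, a change of 0.23 (SE 0.07; limma adjusted p = 0.166). Its inhibitor securin, Pttg1, read 9.78, 9.85 and 9.71 in Cre and 9.66, 9.63 and 9.65 in EV, a change of 0.13 (SE 0.07; limma adjusted p = 0.375). In both genes all Cre arrays were above all EV arrays, as in 10.3% of all genes and 14.5% of those at or above the median level. Of the chromosomal passenger subunits, Incenp, the scaffold that binds Aurora B, read 8.71, 8.65 and 8.79 in Cre and 8.46, 8.39 and 8.56 in EV, a change of 0.24 (SE 0.07; limma adjusted p = 0.145). Birc5, survivin, read 10.29, 10.37 and 10.29 in Cre and 10.09, 10.24 and 10.14 in EV, a change of 0.16 (SE 0.07; limma adjusted p = 0.314). Cdca8, borealin, read 9.04, 8.94 and 9.11 in Cre and 8.87, 8.96 and 8.80 in EV, a change of 0.15 with overlapping groups. The kinase of this complex, Aurkb, was given above at -0.06.

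The cytokinesis genes had positive changes of at most 0.12. Prc1, which bundles the microtubules of the central spindle, read 8.56, 8.52 and 8.51 in Cre and 8.39, 8.44 and 8.40 in EV, a change of 0.12 (SE 0.06; limma adjusted p = 0.371). Racgap1, a subunit of centralspindlin, read 8.15, 8.17 and 8.18 in Cre and 8.08, 8.14 and 7.96 in EV, a change of 0.11 (SE 0.07; limma adjusted p = 0.531). These 2 of the 4 genes had no overlap between the groups, by a margin of only hundredths for Racgap1. No overlap with Cre higher was seen in 10.3% of all genes and in 14.5% of those at or above the median level. Anln, anillin, which organises the contractile ring, read 8.67, 8.56 and 8.57 in Cre and 8.60, 8.60 and 8.58 in EV, a change of 0.01. Ect2, the exchange factor that activates RhoA, changed by 0.09 (95% interval -0.10 to 0.27).

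**Figure D3:**
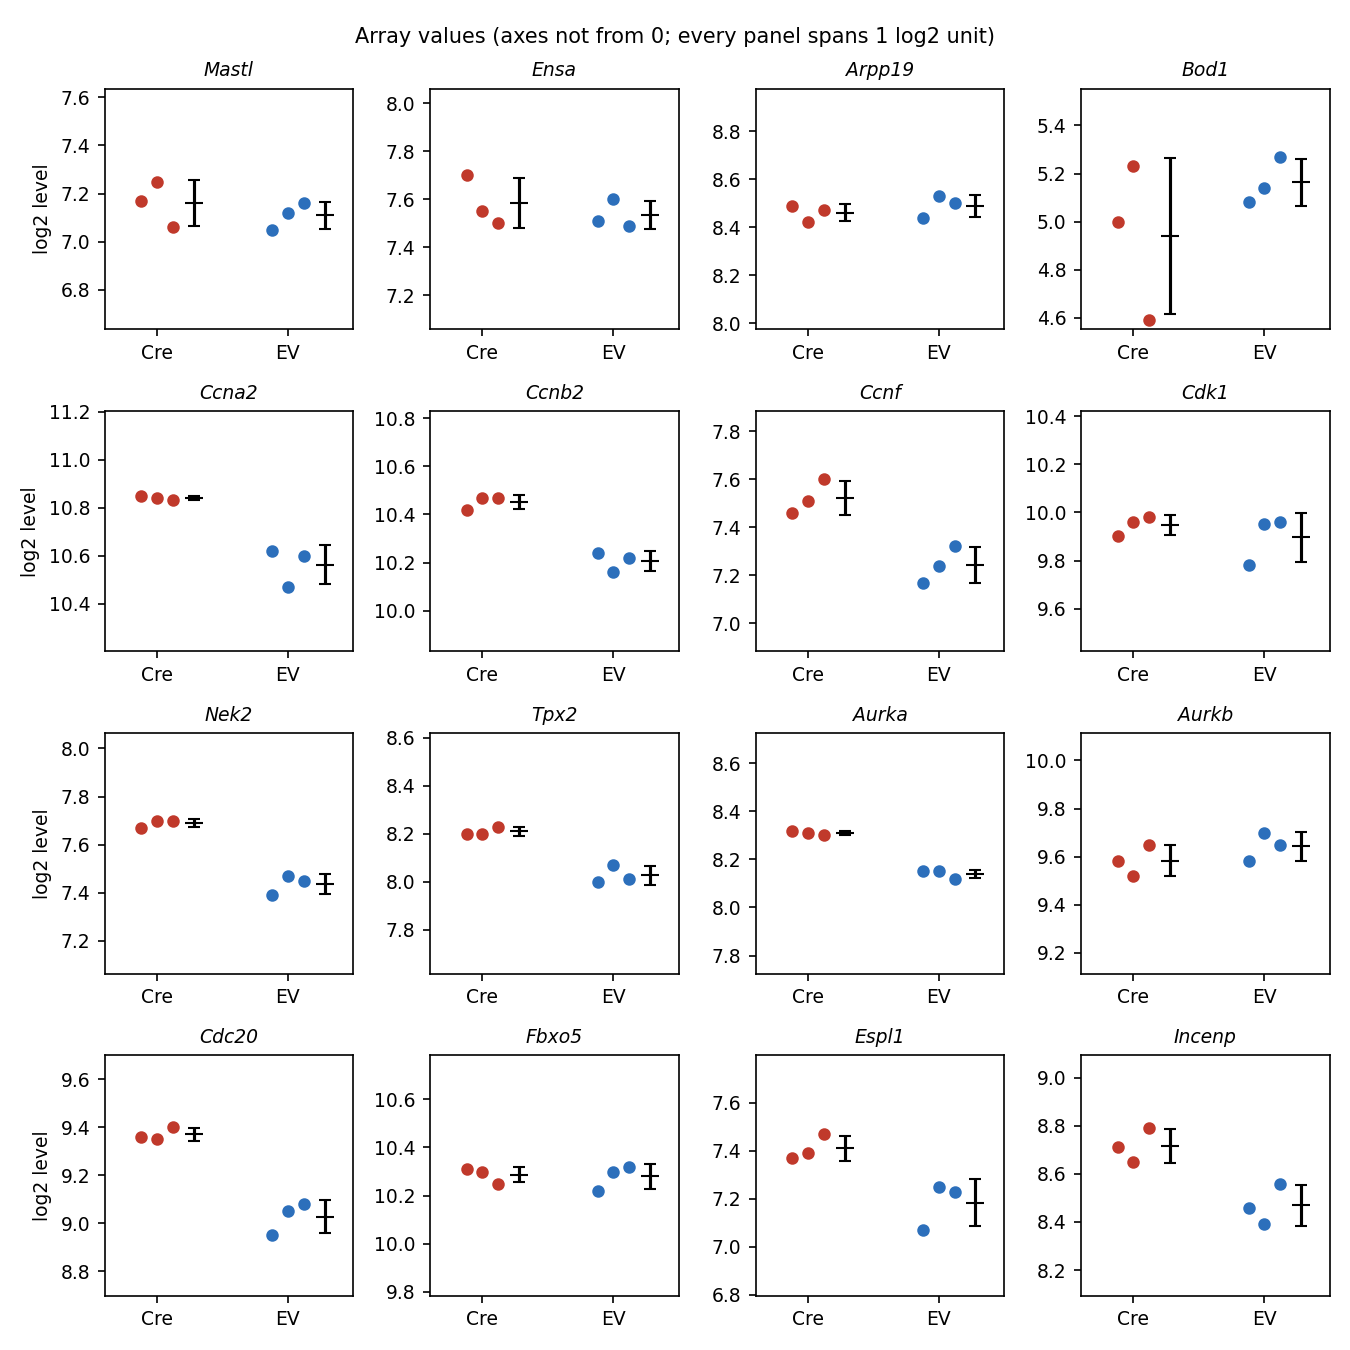
Log2 level (y axis, each panel spanning 1 log2 unit and not starting at 0) of 16 mitotic regulators in the 3 Cre arrays (red, left) and the 3 EV arrays (blue, right), with mean and SD in black. Mastl, Ensa, Arpp19, Bod1, Cdk1, Aurkb and Fbxo5 overlap between the groups, and the other 9 do not.

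The promoters of late cell cycle genes are known to share a CHR element (cell cycle genes homology region), through which the DREAM and MuvB complexes act, and CCAAT boxes, which NF-Y binds. The windows of Cdc20, the gene that rose, of Ccnb2 and Ccnf, cyclins with no overlap between groups, of Cdk1, which overlapped, and of Mastl, of the Greatwall arm, are printed to show how alike or unlike they are. Each is the RefSeq window of GRCm38.p6 from 250 bases before to 50 bases after the annotated start, 5′ to 3′ on the gene's strand. Capitals mark the letters TTTGAA (CHR) and CCAAT on either strand, so a CCAAT on the other strand reads ATTGG. All 5 lie on the minus strand: Cdc20 at chr4:118437294-118437593, Ccnb2 at chr9:70421505-70421804, Ccnf at chr17:24251360-24251659, Cdk1 at chr10:69352863-69353162 and Mastl at chr2:23155975-23156274.
Cdc20: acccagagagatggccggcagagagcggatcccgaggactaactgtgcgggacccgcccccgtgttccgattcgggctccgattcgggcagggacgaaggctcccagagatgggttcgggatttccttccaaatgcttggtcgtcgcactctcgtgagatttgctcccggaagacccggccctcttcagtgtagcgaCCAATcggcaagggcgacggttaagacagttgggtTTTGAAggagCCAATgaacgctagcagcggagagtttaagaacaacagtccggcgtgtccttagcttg
Ccnb2: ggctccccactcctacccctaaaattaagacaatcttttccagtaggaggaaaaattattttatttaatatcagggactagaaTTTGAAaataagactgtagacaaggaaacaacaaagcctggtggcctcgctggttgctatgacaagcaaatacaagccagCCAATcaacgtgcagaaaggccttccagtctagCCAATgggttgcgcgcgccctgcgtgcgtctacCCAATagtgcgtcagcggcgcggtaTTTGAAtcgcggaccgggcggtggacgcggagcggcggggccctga
Ccnf: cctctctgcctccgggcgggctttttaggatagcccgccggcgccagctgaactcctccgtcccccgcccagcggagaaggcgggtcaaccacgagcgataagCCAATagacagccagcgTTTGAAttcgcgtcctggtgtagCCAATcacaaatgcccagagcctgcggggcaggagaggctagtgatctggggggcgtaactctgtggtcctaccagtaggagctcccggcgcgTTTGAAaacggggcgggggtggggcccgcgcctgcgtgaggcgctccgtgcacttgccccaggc
Cdk1: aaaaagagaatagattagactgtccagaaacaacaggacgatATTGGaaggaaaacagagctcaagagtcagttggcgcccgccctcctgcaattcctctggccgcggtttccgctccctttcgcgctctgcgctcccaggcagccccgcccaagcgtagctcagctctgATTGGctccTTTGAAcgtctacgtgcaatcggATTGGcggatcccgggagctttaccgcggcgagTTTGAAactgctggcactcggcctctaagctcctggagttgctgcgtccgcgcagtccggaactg
Mastl: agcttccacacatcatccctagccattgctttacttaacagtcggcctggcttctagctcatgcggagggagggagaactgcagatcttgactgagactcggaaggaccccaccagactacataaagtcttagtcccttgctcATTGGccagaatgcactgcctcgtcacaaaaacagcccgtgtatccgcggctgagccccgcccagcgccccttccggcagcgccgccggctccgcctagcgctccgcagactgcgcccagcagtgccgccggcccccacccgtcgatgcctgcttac

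In the Cdc20 window the CHR letters began 18 bases before the start, behind a CCAAT at -53 and ahead of another at -8. The Ccnb2 window held 3 CCAAT boxes, at -87, -54 and -21, and CHR letters at -167 and at 5 bases into the transcript. Ccnf had CHR letters at -130 and -14, and CCAAT at -147 and -107. The Cdk1 window also held both elements, with CHR letters at -71 and -15 and 3 reversed CCAAT boxes at -208, -80 and -48. Unlike the other windows printed, it held E2F letters as well (TTCGCGC or TTGGCGC, not marked by capitals). Cdk1 changed by 0.05. Mastl had no CHR letters and 1 reversed CCAAT, at -107. A match is only a match of letters, and no binding was measured here.

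Of the 46 listed genes, 38 had a RefSeq window, Ccnb1 included. Ccna2, Wee1, Pkmyt1, Cdc25c, Aurkb, Bora, Tpx2 and Incenp had none in the table. CHR letters were found in 17 of the 38 (44.7%), against 20.2% of 27025 genes with a window. CCAAT was found in 28 (73.7%), against 41.1%, and both in 16 (42.1%), against 7.97%. The E2F letters TTCGCGC or TTGGCGC, searched on both strands, were found in 4 (10.5%), against 4.47%, and 3 of their matches overlapped CCAAT letters. Genes with several windows were counted as holding a motif if any window did. Late cell cycle genes are known for these elements, so the shares describe the list and not the Cre cells. The 16 genes with both elements, all measured, had a median change of 0.11, from -0.02 to 0.34, and 10 of them had no overlap, all with Cre higher. The 20 measured genes without CHR letters had a median change of 0.05, from -0.23 to 0.26, and 6 of them had no overlap with Cre higher. Over all genes that share was 10.3%, and 14.5% among those at or above the median level. The difference between these sets was not tested.

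Around the 45 genes, 7 further lists of the same machinery were read, and 152 of their 154 entries were measured. Of the genes named from them below, Ppp1cc, Ube2s, Anapc15 and Ywhaz had 2 probes each. The brighter probe was used, and the other is not given here. Over all 7 lists, 2 genes rose and 2 fell, no larger shares than the 1.35% and 2.14% of all genes. A positive change was measured for 102 of the 152, against 49.1% of all genes, and the median was 0.04. Every Cre array lay above every EV array for 49 of the 152 (32.2%) and below for 11, against 10.3% and 12.2% of all genes. Among 38 spindle, condensin and cytokinesis partners, Kif20a and Kif23 rose and 0 fell, 30 had a positive change, and the median was 0.09. No overlap was seen in 18 of the 38 with Cre higher (47.4%) and in 2 with Cre lower. Among genes at or above the median level those shares were 14.5% and 18.4%. For the 45 mitotic regulators the share with Cre higher was 42.2%. At an unadjusted p below 0.05, 10 of the 38 were higher and 1 lower, against 7.1% and 9.02% of all genes. Kif20a, a kinesin that carries the passenger complex to the central spindle, read 8.43, 8.38 and 8.28 in Cre and 8.03, 7.99 and 7.97 in EV (change 0.36; limma adjusted p = 0.0289). Kif23, the motor of centralspindlin, read 9.43, 9.34 and 9.28 in Cre and 8.99, 8.99 and 9.05 in EV (change 0.34; limma adjusted p = 0.0346). Both kinesins act with proteins of the list above, beside Incenp and Racgap1. With 1 array left out, Kif23 passed in 0 of 6 fits (highest limma adjusted p = 0.123) and Kif20a in 1 of 6 (highest 0.107).

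Of 23 genes of the DREAM, B-Myb and FoxM1 network, which controls mitotic transcription, 1 fell and 0 rose. A positive change was measured for 18 of the 23, against 49.1% of all genes, and the median was 0.05. No overlap was seen in 5 with Cre higher and in 2 with Cre lower, against 10.3% and 12.2% of all genes. Among genes at or above the median level those 3 shares were 47.7%, 14.5% and 18.4%. Tfdp2, a dimerisation partner of E2F factors, read 7.99, 8.01 and 7.94 in Cre and 8.47, 8.46 and 8.49 in EV, 1.41-fold lower in Cre (change -0.49, SE 0.06; limma adjusted p = 0.005). Leaving out any 1 array did not end its call (highest limma adjusted p = 0.0256). Rb1, the retinoblastoma protein, read 9.15, 9.18 and 9.16 in Cre and 8.97, 8.88 and 8.88 in EV, a change of 0.25 (limma adjusted p = 0.0827). The activators Foxm1 and Mybl2, which switch on many genes of the list, averaged 8.86 ± 0.08 and 7.74 ± 0.13 in Cre and 8.81 ± 0.03 and 7.74 ± 0.05 in EV (SD, n = 3 arrays each).

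Of 41 kinetochore and other checkpoint genes, 1 fell and 0 rose, 21 had a positive change, and the median was 0.00. With no overlap between groups, 9 were higher in Cre and 5 lower, against 10.3% and 12.2% of all genes. Among genes at or above the median level those shares were 14.5% and 18.4%. At an unadjusted p below 0.05, 5 were higher and 1 lower, against 7.1% and 9.02% of all genes. The gene that fell was Nek6, a kinase that acts on spindle motors, with 5.77, 5.65 and 5.83 in Cre and 6.18, 6.11 and 6.09 in EV (change -0.38; limma adjusted p = 0.0322), and it passed in 0 of 6 fits that left out 1 array. Zwint, which anchors checkpoint proteins at kinetochores, read 7.26, 7.19 and 7.12 in Cre and 6.99, 6.95 and 6.92 in EV, a change of 0.24 (limma adjusted p = 0.122).

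Of the phosphatases that undo mitotic phosphorylation, 0 of 15 genes passed, the median was 0.03, and 3 were higher and 0 lower at an unadjusted p below 0.05, against 7.1% and 9.02% of all genes. Mki67, the PP1-binding proliferation antigen Ki-67 that coats mitotic chromosomes, came nearest, with 10.46, 10.45 and 10.41 in Cre and 10.19, 10.06 and 10.16 in EV (change 0.30; limma adjusted p = 0.0509). Ppp1cc, a catalytic subunit of PP1, read 10.44, 10.43 and 10.39 in Cre and 10.23, 10.21 and 10.29 in EV, a change of 0.18 with no overlap. Of the B55 subunits, on which Ensa and Arpp19 act, Ppp2r2a averaged 8.11 ± 0.05 in Cre and 8.09 ± 0.08 in EV, and Ppp2r2d 8.47 ± 0.05 in Cre and 8.30 ± 0.06 in EV (SD, n = 3 arrays each). Neither passed the test.

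In the other 3 lists no gene passed, and the counts at an unadjusted p below 0.05 are again to be read against 7.1% of all genes higher and 9.02% lower. Among 11 further APC/C genes the median was 0.06, with 2 higher and 0 lower at that level. Ube2s, which extends ubiquitin chains for the APC/C, read 10.01, 9.94 and 9.93 in Cre and 9.78, 9.77 and 9.80 in EV, a change of 0.18. Anapc15, a small APC/C subunit, read 8.42, 8.5 and 8.55 in Cre and 8.19, 8.42 and 8.24 in EV, a change of 0.20. Among 11 SCF and other ligase genes the median was 0.04, with 1 higher and 1 lower at that level. Usp44, a deubiquitinase of the checkpoint, changed by 0.39 from dim values of 4.98, 5.05 and 5.12 in Cre and 4.53, 4.95 and 4.50 in EV, with EV replicate 2 close to the Cre arrays. Fbxw11, a beta-TrCP protein that marks WEE1 for destruction, read 7.40, 7.37 and 7.42 in Cre and 7.57, 7.64 and 7.49 in EV, a change of -0.17. Among 13 DNA damage inputs to the Cdk1 switch the median was 0.03, with 2 higher and 0 lower at that level, both of them 14-3-3 proteins. Ywhab read 10.21, 10.14 and 10.22 in Cre and 10.07, 9.94 and 10.01 in EV, a change of 0.19. Ywhaz read 10.88, 10.81 and 10.80 in Cre and 10.73, 10.56 and 10.66 in EV, a change of 0.18. Neither overlapped between the groups.

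**Figure D4:**
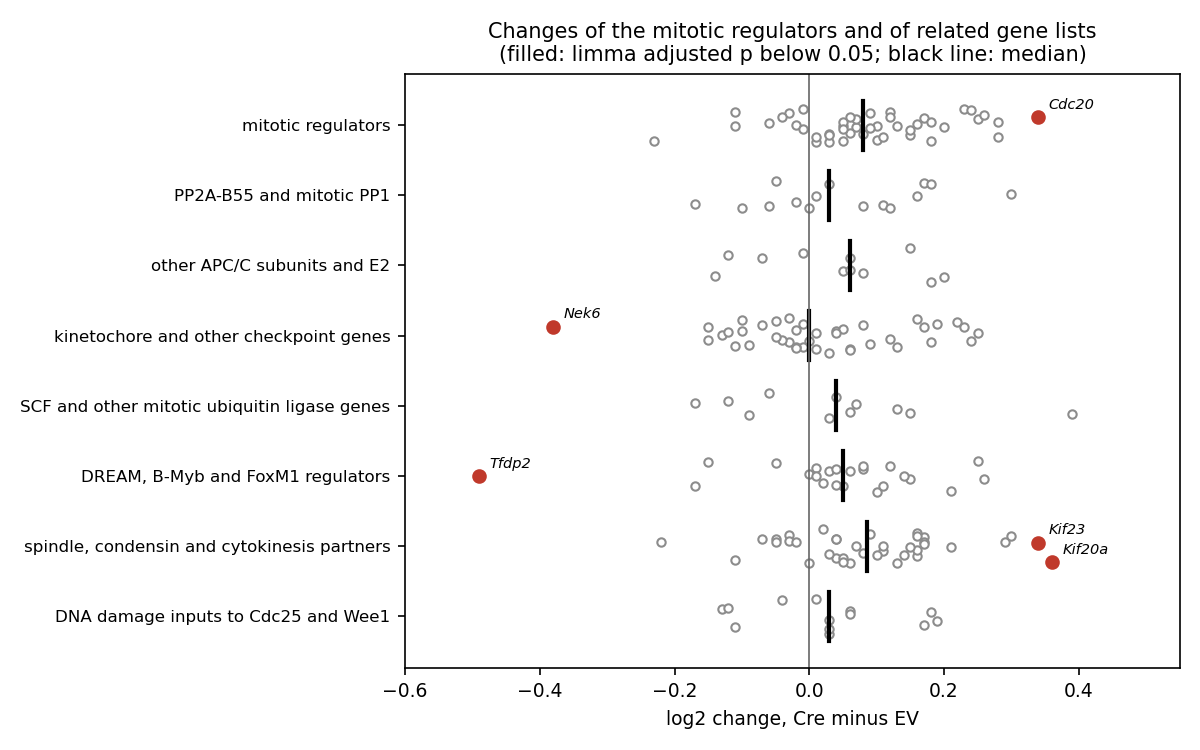
Log2 change (Cre minus EV, x axis) of the 45 mitotic regulators and of 7 related gene lists (y axis; 1 point per gene, spread vertically for legibility). The medians, drawn as black lines, lie between 0.00 and 0.09, and the filled points are the genes that passed: Cdc20, Kif20a and Kif23 to the right of 0, Nek6 and Tfdp2 to the left.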

How the data were processed

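The authors deposited log2 expression values, 1 per probe and array, made with RMA (background correction, quantile normalization, probe summary) per the submitters' processing notes. No RMA version is stated there. RNA was extracted with a Qiagen kit and labelled with biotin for 1-colour Affymetrix arrays, per the labels' protocols. Quantile normalization makes each change relative to the other genes. With 3 arrays a group, their number sets the precision. Of 25006 probes, 21467 had 1 gene symbol, 1521 several and 2018 none in the platform annotation. Of the first kind 21386 were matched to RefSeq (GRCm38.p6). Cre and EV, grouped by title, were compared with limma 3.58.1 in R 4.3.3 (lmFit, eBayes, group only), which was also tested on simulated data. With array spreads shuffled over all genes, it called 1 of 50 genes given a log2 change of 0.25. At 0.5 it called 19 of 50 and at 1 it called 41 of 50, so small changes were mostly missed in the simulated data. The median spread was 0.06 (SD) for the mitotic regulators and 0.11 for all genes. These rates therefore do not tell how often a small change in the mitotic regulators was missed. Tables used Python 3.11.15 and pandas 2.3.3, and figures matplotlib 3.10.9.

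The members and lists were chosen with earlier results of these data known. Array values were given for Ppp2r1a, the Greatwall arm, genes that passed, and in each role the 2 with the smallest p and the 1 nearest to 0. In each further list they were given for up to 4 genes that passed, or, where under 2 did, the 2 with the smallest p. Ccnf, Aurka, Plk1, Cdc25a, Wee1, Fzr1, Bub1b, Foxm1, Mybl2, Ppp2r2a, Ppp2r2d and the other members were named after their values were seen, as were the promoters printed. The labels do not say whether the repeat numbers pair the arrays. Same-numbered deviations from group means correlated at 0.009, -0.012 and 0.03 across genes. These values show no broad shared pattern, but they cannot tell how the cells were handled. Alternatives covered the block, scaling, dim genes, the variance model, the probe and single arrays.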

Additional observations from a re-analysis of the deposited data

How the results depend on the processing

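The count of mitotic regulators that rose was 1 as reported. It was 0 with the replicate block, 2 after quantile normalization again, 4 without the dimmest 25% of genes, 8 without the dimmest 50% and 9 with trend and robust settings, and 0 to 0 with 1 array left out (0 in each of the 6 fits). No alternative called any of them lower. The median change of the 45 stayed between 0.058 and 0.098 with 1 array left out. Genes called over all genes numbered 689 as reported. They numbered 425 with the replicate block, 1295 without the dimmest 50%, 1558 with trend and robust settings, and 362 (without EV replicate 2) to 424 (without EV replicate 3) with 1 array left out. In the 7 further lists 4 genes were called as reported, 1 with the replicate block (Tfdp2), 7 and 14 without the dimmest 25% and 50%, 22 with trend and robust settings, and 1 to 2 with 1 array left out. Whether the repeat numbers pair the arrays is not stated. The block, under which the limma adjusted p of Cdc20 was 0.0935, removes degrees of freedom without a known shared source. Leaving out dim genes lowers the number of genes adjusted for and also changes the variance estimates that limma shares between genes. Without the dimmest 50% the SE went from 0.06 to 0.05 for Ccnb2 and from 0.07 to 0.06 for Ccna2. Centring, array weights and probe choice left Cdc20 as the 1 gene called. Ppp2r1a was called in all 16 alternatives. Of the 45 genes, 12 with changes near 0 changed sign in some fit without ever being called.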

Other observations

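Anapc5, an APC/C scaffold subunit, had 5 probes annotated with it alone. The brightest, used above, changed by 0.05, and the others by 0.06, 0.15, 0.15 and 0.04, a comparison added after the data were seen. The 2 probes at 0.15 held identical values on all 6 arrays, so they give a single measurement, with 6.39, 6.43 and 6.42 in Cre and 6.21, 6.34 and 6.25 in EV.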
